A study of Mus musculus with 24 samples.

Results

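Atf3, Cebpa, Cebpb, Cebpd, Cebpg, Maff, Nfil3 and Crem encode transcription factors of the basic leucine zipper (bZIP) class, several of which are induced by cellular stress. The genes were chosen by symbol from a list drawn up with earlier results of these data known, above all the difference between the hemispheres after occlusion, and each gene was represented by its probe set of highest mean signal. Of the 8 genes, 7 had a named probe set, 1 each, among the 19505 genes so named. Crem was not analysed here.

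The question was how these genes stood in the mouse brain 2 h after the start of an ischemic stroke. The animals were 12 males of the C57Bl/6j strain, 8 to 10 weeks old. An intraluminal occlusion of the middle cerebral artery (MCAO) lasted 90 min in 8 of them, whose brains were taken 30 min after its end, and the other 4 were sham-operated. The ipsilateral hemisphere (IP, the occluded side in MCAO mice) and the contralateral hemisphere (CL) of each saline-perfused brain were measured on 1 array each, 24 in all. Every mouse was operated on and perfused, and no unoperated mouse was analysed here. A whole hemisphere also holds tissue outside the territory of the occluded artery, and in such bulk RNA fewer cells of a type and less RNA per cell cannot be told apart.

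MCAO mouse 3 and sham mouse 1 gave 4 arrays that stood apart from the other 20. Their median correlation with the 20 arrays was 0.328 to 0.55, against 0.981 to 0.989 among the 20, and their background, taken on each array as the signal that 95% of its negative controls stayed under, was 7.41 to 7.61 on the log2 scale against 5.17 to 5.74. No member exceeded background on any of these 4 arrays, and the members' results are therefore given on all arrays and on the 20. The 10 neuron, 8 astrocyte and 7 oligodendrocyte markers measured exceeded background on every one of the 20 arrays.

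A bZIP protein binds DNA as a dimer, through a basic region next to a leucine zipper, and the pairing of partners sets which sequence is bound. ATF3 is a stress-induced member of the ATF/CREB branch that acts mostly as a repressor as a homodimer, and it pairs with JUN proteins. The C/EBP proteins bind related sites and drive differentiation and acute-phase and inflammatory genes. MAFF is a small MAF protein without a transactivation domain, and NFIL3 represses through sites shared with the PAR bZIP factors of the circadian output.

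Atf3 is itself a target of ATF/CREB factors, and the promoters of the 4 members that stood furthest above the sham-operated side are shown because the cyclic AMP response element (CRE) that these factors bind was searched for in them. The sequences are from RefSeq (mouse build GRCm38.p6), 5′ to 3′ on the gene's strand, and give the 100 bases immediately upstream of an annotated transcription start, with matches to a CRE-like element or a CRE half-site in capitals.
Atf3, chr1:191183334-191183433, minus strand: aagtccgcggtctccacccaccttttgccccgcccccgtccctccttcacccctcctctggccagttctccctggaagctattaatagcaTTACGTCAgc
Cebpb, chr2:167688815-167688914, plus strand: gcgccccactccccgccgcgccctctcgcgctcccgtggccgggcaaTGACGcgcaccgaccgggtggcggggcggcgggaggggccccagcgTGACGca
Nfil3, chr13:52981040-52981139, minus strand: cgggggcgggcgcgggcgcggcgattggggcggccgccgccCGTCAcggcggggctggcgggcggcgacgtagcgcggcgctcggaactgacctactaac
Maff, the second of 3 annotated starts, chr15:79347420-79347519, plus strand: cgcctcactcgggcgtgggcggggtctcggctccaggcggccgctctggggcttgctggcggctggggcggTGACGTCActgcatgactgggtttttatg

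The search covered 250 bases upstream to 50 bases downstream of each start, on both strands, in the 6 members matched in the promoter table, with 8 starts in all. Cebpd had no entry there. The CRE-like element TNACGTCA occurred in Atf3, at positions -10 to -3 from the start as TTACGTCA, and at the second Maff start, at -29 to -22 as the full CRE TGACGTCA. The full CRE is 1 form of the CRE-like element, and both hold the half-site TGACG or its complement. Among 32851 mouse promoter windows of the same length, 2.93% held the CRE-like element and 1.79% the full CRE. The half-site occurred in Atf3, Cebpb, Nfil3 and Maff, and in neither Cebpa nor Cebpg, against 20.8% of all windows. Cebpb held 3 half-sites, of which the 2 nearest the start, at -53 to -49 and at -7 to -3, are shown above. The AP-1 element TGANTCA was found in none of the 8 windows and in 7.81% of all windows, and the C/EBP element TTGCNNAA occurred at the first Maff start, against 10.8% of all windows. The motifs were picked with the sequences in view, and a match is a description of letters. The windows with a half-site are rich in G and C (64.7% in Atf3, 80.7% in Cebpb, 81.7% in Nfil3, 61.3% at the second and 59.7% at the third Maff start) against a median of 52.7% over all promoters. Those without a half-site held 67.3% in Cebpa, 71.7% in Cebpg and 50.3% at the first Maff start.

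Atf3 was the member with the largest difference. In the occluded hemisphere its log2 signal had a lowest value of 5.12, a median of 6.39 and a highest value of 6.98 over the 8 MCAO mice. In the opposite hemisphere of the same mice it was 4.29, 4.81 and 5.33. In sham mice 1 to 4 it was 5.18, 4.10, 3.44 and 5.09 on the operated side and 4.76, 3.60, 5.13 and 4.79 on the other. The occluded hemispheres were high and the 3 other groups low, and the 5.12 of MCAO mouse 3 was the single occluded value within the range of the others. Atf3 exceeded background on 7 of 8 occluded hemispheres and on 0 arrays of any other group.

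**Figure D1:**
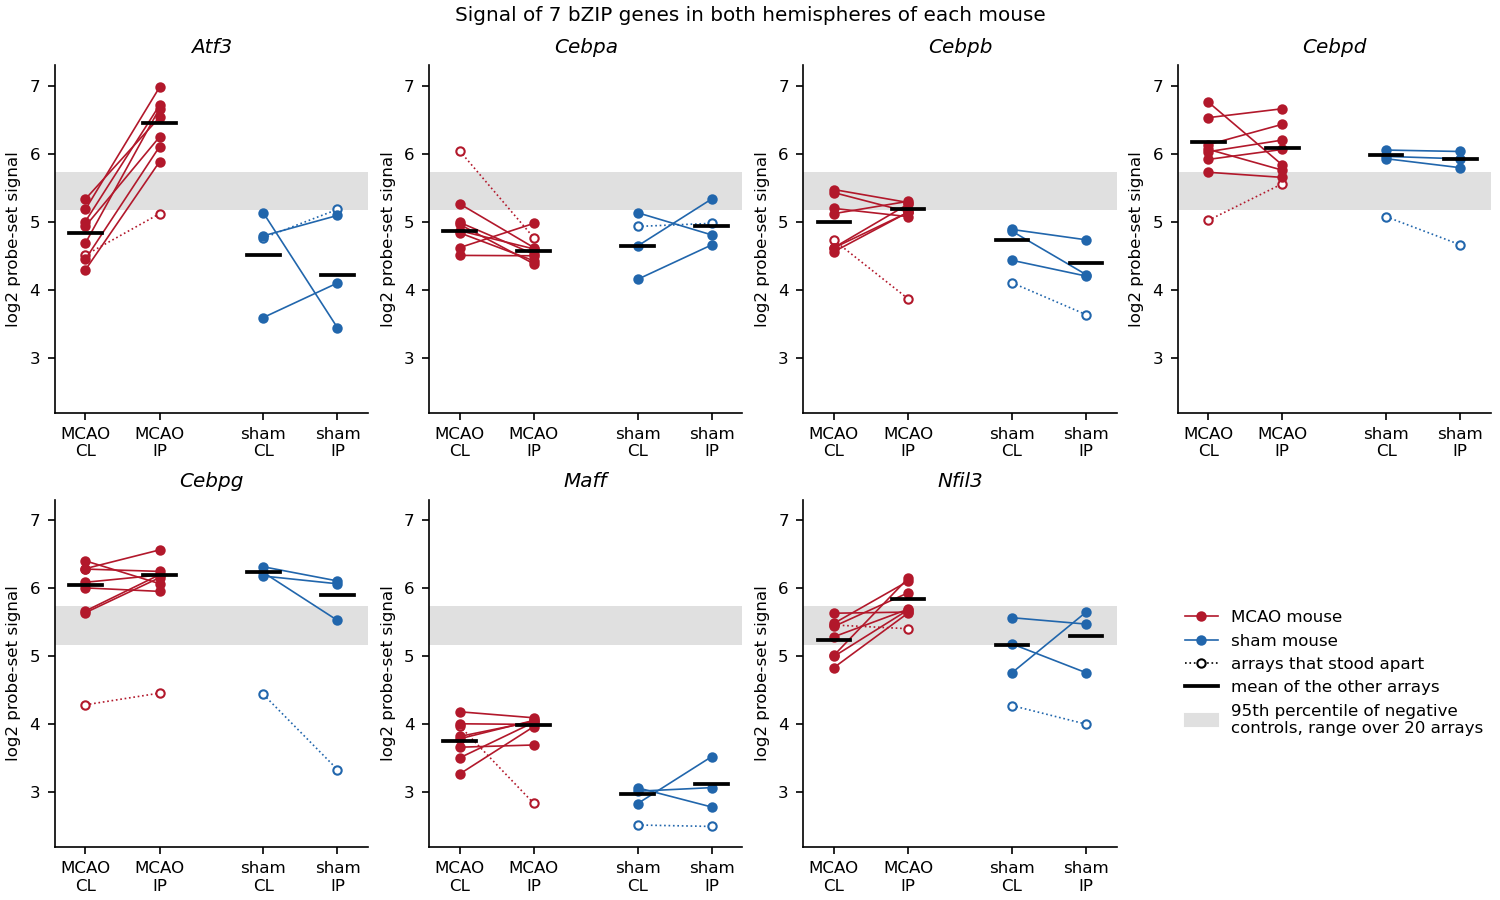
Log2 probe-set signal of the 7 measured genes, with lines joining the hemispheres of a mouse, MCAO in red, sham in blue, and the 4 arrays that stood apart as open points with dotted lines. Black bars are means over the 20 other arrays and the grey band spans their background (5.17 to 5.74), above which the occluded-side Atf3 signals of 7 mice lie. The background of the open points is higher (7.41 to 7.61).

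Within mice, Atf3 gave a positive IP minus CL difference in all 8 animals with MCAO, of 1.48 ± 0.43 on the log2 scale (SD, n = 8). The smallest difference, 0.61, was that of mouse 3, and the largest, 1.98, that of mouse 1. Without mouse 3 the mean was 1.60 ± 0.27 (SD, n = 7) and the 2 sets of values did not overlap, as for 0.0721% of all probe sets. Since the opposite hemisphere was not above background, only a lower bound of the fold can be given, computed with opposite-side signals under background raised to the background of their array. It was at least 1.44-fold on all arrays and at least 1.94-fold on the 20.

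In sham mice the Atf3 side difference was -0.12 ± 1.05 (SD, n = 4), or -0.29 ± 1.21 (SD, n = 3) without mouse 1. It was positive in mice 1, 2 and 4 and -1.69 in mouse 3, and no sham value was above background. The sham side difference passed the threshold of adjusted p 0.05 for 0 members, as for 0 of 22206 probe sets (0%), by limma with Benjamini-Hochberg adjustment over all of them, and 1390 probe sets had an unadjusted p under 0.05. The 20 arrays again gave 0 members and 0% of probe sets, with 1220 at that unadjusted p.

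In the MCAO side comparison, the one known when the genes were listed, Atf3 was the 1 member of 7 past the threshold, on all arrays (0.0856% of probe sets were called higher) and on the 20 arrays (0.126%). It was 9th by size of rise among 22206 probe sets on all arrays.

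The test of whether the Atf3 side difference was larger after MCAO than after sham surgery is the interaction of side and surgery. It was 1.60 ± 0.36 (SE) on all arrays, with a limma adjusted p of 0.891, and 1.90 ± 0.37 on the 20, with an adjusted p of 0.291. No member and no probe set passed in either fit (0%), while 1138 and 1312 probe sets had an unadjusted p under 0.05. With a trended, robust prior on the 20 arrays, the Atf3 interaction did pass, at an adjusted p of 0.0328, as did 0.0225% of probe sets. Its adjusted p was 0.145 to 0.44 under 4 other settings on those arrays. Without sham mouse 3 as well, the estimate was 1.20 ± 0.21 (adjusted p = 0.332).

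Against the operated side of sham mice, Atf3 in the occluded hemisphere differed by 1.82 ± 0.40 (SE) on all arrays, which did not pass the test (limma adjusted p = 0.941). It rose by 2.23 ± 0.30 on the 20 arrays (adjusted p = 0.00267), and it kept its call there when any 1 of the 10 mice was left out (1.85 to 2.67). The lower bound of the fold was 1.83-fold on the 20 arrays and 1.17-fold on all. The occluded values, 5.88 to 6.98 on the 20 arrays, lay above all 3 sham values. In the opposite hemisphere the difference from sham was 0.23 ± 0.31 on all arrays and 0.33 ± 0.29 on the 20 (adjusted p = 0.997 and 1.0), with 95% intervals of -0.45 to 0.91 and -0.29 to 0.96.

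On all arrays, 0 members passed the comparison of the occluded with the sham-operated side, and 1 probe set (0.0045%) was called higher. Without the 4 arrays, 3 of 7 members were called higher, Atf3, Cebpb and Maff, against 0.126% of probe sets called higher and 5 probe sets called lower. The same 3 members had occluded values that all lay above the sham values, as did 1.4% of all probe sets. The median difference of the 7 members was 0.54 on the 20 arrays, against 0.0082 over all probe sets. This comparison shares its occluded arrays with the side comparison known when the genes were listed. The 7 members are described together with these shares and not read as a test of the group. In the same comparison the mean signal of 7 oligodendrocyte markers was also higher in every occluded than in every sham-operated hemisphere, 8.45 to 8.72 against 8.40 to 8.44, and its part in the member results was not tested.

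**Figure D2:**
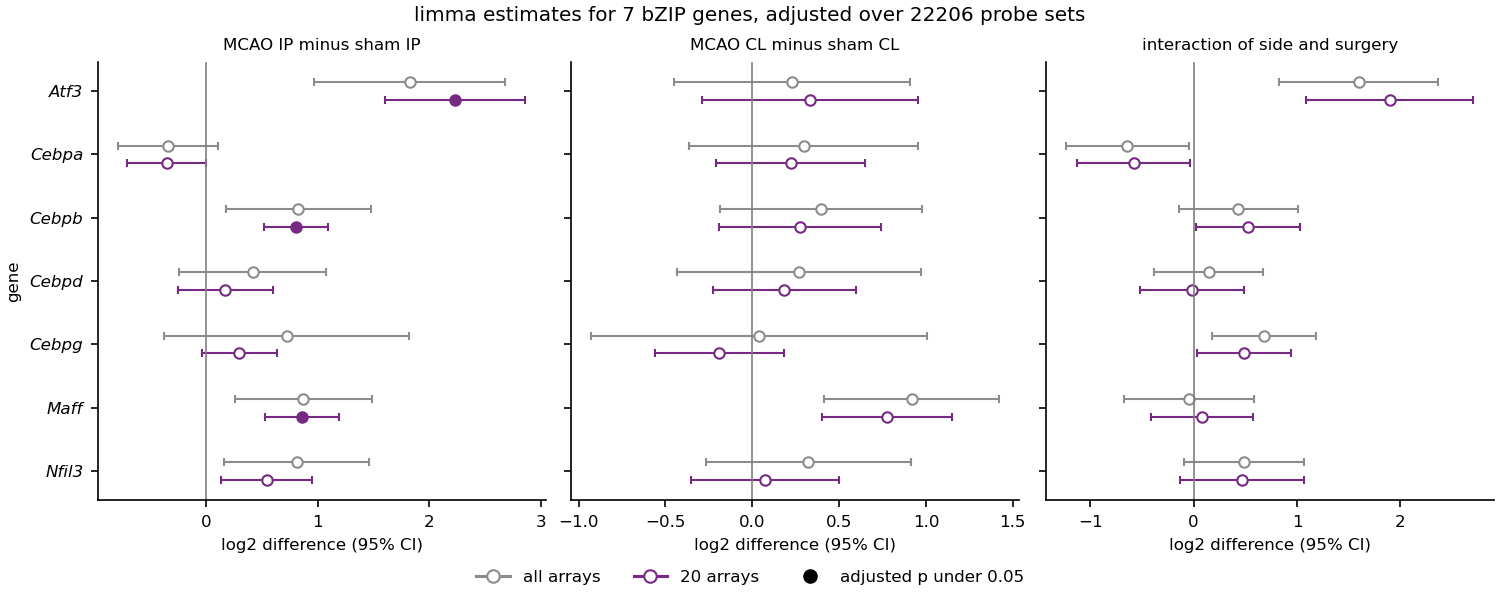
Estimated log2 differences with 95% intervals from limma for the 7 genes, on all arrays (grey) and on the 20 that did not stand apart (purple), for the occluded side against sham, the opposite side against sham, and the interaction. Filled points have an adjusted p under 0.05, which was the case for Atf3 (2.23), Maff (0.86) and Cebpb (0.80) on the occluded side on the 20 arrays.

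Of the C/EBP genes, Cebpb, which encodes an activator of inflammatory and acute-phase genes, was the one past the threshold in any comparison. Its log2 signal had a lowest value of 3.87, a median of 5.14 and a highest value of 5.30 on the occluded side, and 4.56, 4.93 and 5.47 on the opposite side. The sham values, mice 1 to 4, were 3.64, 4.23, 4.20 and 4.74 on the operated side and 4.11, 4.86, 4.44 and 4.89 on the other. Apart from mouse 3, the occluded hemispheres fell in a narrow range, 5.08 to 5.30, above the sham-operated hemispheres and inside the range of the opposite hemispheres. Few of these signals were above background, in 1 of 8 occluded and 2 of 8 opposite hemispheres and in no sham hemisphere.

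Cebpb rose against the sham-operated side by 0.80 ± 0.14 (SE, limma adjusted p = 0.0255) on the 20 arrays. On all arrays the difference was 0.83 ± 0.30 (adjusted p = 0.968). Leaving out 1 of the 10 mice ended the call in 8 of 10 cases, all but MCAO mouse 5 and sham mouse 4, with differences of 0.71 to 0.98 and adjusted p-values of 0.00533 to 0.222. The side difference was 0.058 ± 0.52 (SD, n = 8) in MCAO mice, positive in 4 and negative in 4 (0.19 ± 0.39 without mouse 3), and -0.37 ± 0.22 (SD, n = 4) in sham mice, negative in all 4 (-0.34 ± 0.26 without mouse 1). The interaction, 0.43 ± 0.27 (SE) on all arrays and 0.53 ± 0.23 on the 20, did not pass (limma adjusted p = 0.891 and 0.81). No fold is given, since the lower bound fell under 1.

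Cebpd, an acute-phase C/EBP gene, was above background on every one of the 20 arrays and showed no called difference. Its log2 signal had a lowest value of 5.56, a median of 5.95 and a highest value of 6.66 on the occluded side, and 5.02, 6.05 and 6.76 on the opposite side. In sham mice 1 to 4 it was 4.66, 5.80, 6.03 and 5.93 on the operated side and 5.08, 5.93, 6.05 and 5.96 on the other. The 4 groups overlapped. Between the occluded and the sham-operated side the difference on the 20 arrays was 0.17 ± 0.20 (SE, limma adjusted p = 0.898), with a 95% interval of -0.26 to 0.59, and on all arrays it was 0.42 ± 0.31 (adjusted p = 0.968). Among MCAO mice the side difference ran from -0.93 to 0.54, with a mean of -0.0028 ± 0.45 (SD, n = 8), or -0.080 ± 0.42 without mouse 3. In sham mice it was -0.15 ± 0.18 (SD, n = 4), or -0.063 ± 0.060 (SD, n = 3) without mouse 1. The interaction was 0.15 ± 0.25 (SE) on all arrays and -0.017 ± 0.23 on the 20 (limma adjusted p = 0.94 and 0.998).

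Cebpg encodes a C/EBP protein without a transactivation domain that pairs with other bZIP proteins such as ATF4. Its occluded-side log2 signal had a lowest value of 4.46, a median of 6.17 and a highest value of 6.56, against 4.28, 6.04 and 6.40 on the opposite side. Sham mice 1 to 4 had 3.33, 5.52, 6.06 and 6.10 on the operated side and 4.44, 6.23, 6.18 and 6.31 on the other. The lowest value of each group belonged to an array that stood apart. Cebpg exceeded background on 7 of 8 occluded, 7 of 8 opposite, 2 of 4 sham-operated and 3 of 4 sham opposite hemispheres. On the operated side of sham mouse 2 it was below background (5.52 against 5.71). The MCAO side difference was 0.15 ± 0.29 (SD, n = 8), or 0.14 ± 0.32 without mouse 3, while all 4 sham mice were lower on the operated side, by -0.53 ± 0.46 (SD, n = 4). Without sham mouse 1, whose difference was -1.10, this was -0.34 ± 0.32 (SD, n = 3). The 3 sham-operated values of the 20 arrays lay below the 3 opposite values, as for 3.75% of probe sets. Neither the sham difference (limma adjusted p = 0.711 on all arrays and 0.942 on the 20) nor the interaction, 0.68 ± 0.24 (SE, adjusted p = 0.891) on all arrays and 0.49 ± 0.21 (adjusted p = 0.806) on the 20, passed the test. The difference from the sham-operated side was 0.72 ± 0.51 on all arrays and 0.30 ± 0.16 on the 20 (adjusted p = 0.968 and 0.715).

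Cebpa, best known for its role in the differentiation of liver, fat and myeloid cells, was above background on no array. Its log2 signal had a lowest value of 4.38, a median of 4.57 and a highest value of 4.98 on the occluded side, and 4.51, 4.92 and 6.04 on the opposite side. Sham mice 1 to 4 gave 4.98, 4.81, 5.34 and 4.66 on the operated side and 4.93, 5.13, 4.65 and 4.16 on the other. It was the single member that was lower on the occluded side in most MCAO mice, in 7 of 8, by -0.41 ± 0.48 (SD, n = 8), or -0.29 ± 0.35 without mouse 3, with the 6.04 of mouse 3 the highest opposite value. On the 20 arrays its difference from the sham-operated side was -0.36 ± 0.16 (SE, limma adjusted p = 0.663), and on all arrays -0.34 ± 0.21 (adjusted p = 0.968). In sham mice the side difference was 0.23 ± 0.46 (SD, n = 4), or 0.29 ± 0.54 (SD, n = 3) without mouse 1. Its interaction was -0.64 ± 0.28 on all arrays and -0.58 ± 0.25 on the 20 (adjusted p = 0.891 and 0.809).

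**Figure D3:**
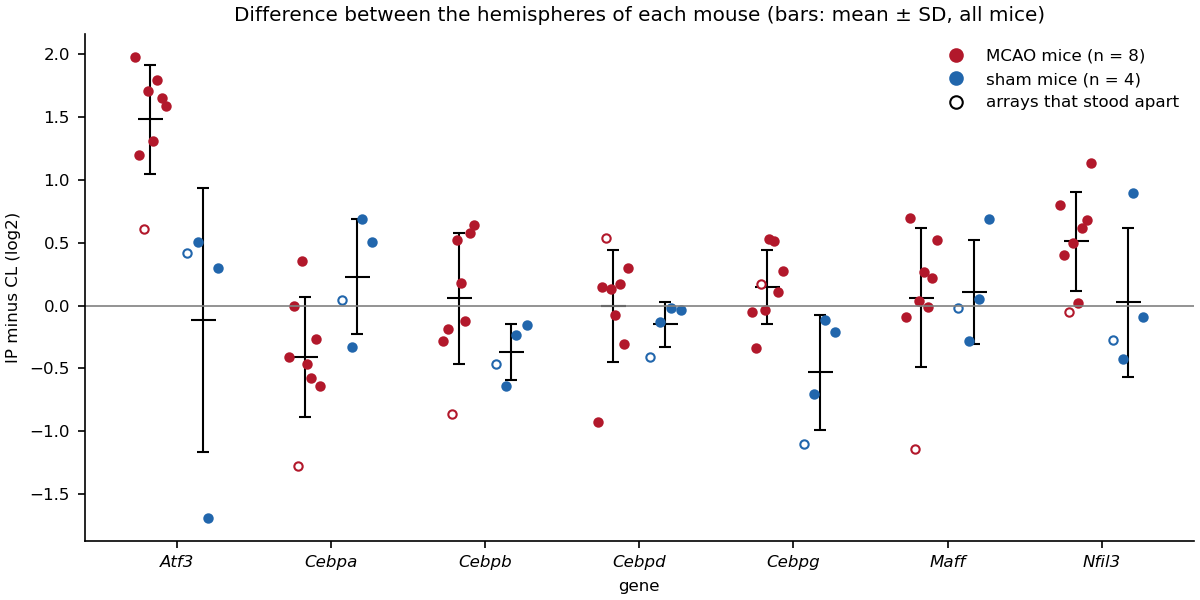
Log2 IP minus CL difference of each mouse for the 7 genes, MCAO in red, sham in blue, open where the arrays stood apart, with mean and SD over all mice. Atf3 is positive in 8 of 8 MCAO mice and Nfil3 in 7 of 8, Cebpa is negative in 7 of 8, and sham mouse 3 has an Atf3 value of -1.69.

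Nfil3 followed Atf3 in the size of the side difference. Its log2 signal had a lowest value of 5.40, a median of 5.68 and a highest value of 6.14 on the occluded side, and 4.83, 5.36 and 5.63 on the opposite side. In sham mice 1 to 4 it was 4.00, 4.76, 5.65 and 5.47 on the operated side and 4.27, 5.18, 4.75 and 5.56 on the other. It exceeded background on 7 of 8 occluded and 0 of 8 opposite hemispheres, and on 2 of 4 sham-operated and 0 of 4 sham opposite ones. The occluded values of the 20 arrays all lay above the opposite values, 5.633 being the lowest occluded and 5.630 the highest opposite signal, but not above the sham values. Of all probe sets, 0.0721% had occluded values that all lay above the opposite values on those arrays.

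In MCAO mice the Nfil3 side difference was 0.51 ± 0.39 (SD, n = 8), positive in 7 of 8, and 0.59 ± 0.35 (SD, n = 7) without mouse 3. The fold was at least 1.02-fold on all arrays and at least 1.27-fold on the 20. In sham mice it was 0.025 ± 0.59 (SD, n = 4), with 0.89 in mouse 3 and negative values in the other 3, or 0.12 ± 0.68 (SD, n = 3) without mouse 1. Against the sham-operated side the difference on the 20 arrays, 0.54 ± 0.19 (SE), did not pass (limma adjusted p = 0.523), nor did the interaction of 0.47 ± 0.28 (adjusted p = 0.87). The same values on all arrays were 0.81 ± 0.30 (adjusted p = 0.968) and 0.49 ± 0.28 (adjusted p = 0.891).

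Maff signals stood above most sham signals on both sides of the brain, all of them below the background of their arrays. Its log2 signal had a lowest value of 2.84, a median of 4.01 and a highest value of 4.09 on the occluded side, and 3.27, 3.80 and 4.18 on the opposite side. The 4 sham mice, in order, had 2.50, 2.78, 3.07 and 3.52 on the operated side and 2.52, 3.07, 3.02 and 2.83 on the other. All 8 opposite hemispheres of MCAO mice lay above all 4 opposite hemispheres of sham mice, as did 0.0495% of all probe sets, and without the arrays that stood apart 0.779% of probe sets did so.

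On the occluded side Maff rose against sham by 0.86 ± 0.15 (SE, limma adjusted p = 0.046) on the 20 arrays. The call ended with a trended, robust prior (adjusted p = 0.062), with array quality weights (0.0838), with quantile normalization (0.0528), and when any 1 of 8 of the 10 mice was left out, all but MCAO mouse 4 and sham mouse 4 (differences of 0.69 to 1.06, adjusted p 0.00819 to 0.242). On all arrays the difference was 0.87 ± 0.28 (adjusted p = 0.968). On the opposite side it was 0.92 ± 0.23 on all arrays and 0.78 ± 0.18 on the 20, which did not pass (adjusted p = 0.997 and 0.988), although Maff was 2nd and 10th by p among 22206 probe sets. In that comparison 0 probe sets passed in either fit (0%), and 81 and 1020 had an unadjusted p under 0.05. The side difference within MCAO mice was small beside this, 0.063 ± 0.55 (SD, n = 8) on all arrays and 0.24 ± 0.29 (SD, n = 7) without mouse 3. In sham mice it was 0.11 ± 0.41 (SD, n = 4), or 0.15 ± 0.49 (SD, n = 3) without mouse 1, and the interaction was -0.047 ± 0.30 (SE) on all arrays and 0.082 ± 0.23 on the 20 (limma adjusted p = 0.988 and 0.987). For the 4 C/EBP genes and Nfil3 the opposite-side difference from sham was 0.040 to 0.40 on all arrays and -0.19 to 0.27 on the 20, none past the threshold. With no array above background, no fold is given.

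The genes around these factors were read as lists, drawn up with earlier results of these data known, and the members called are given against the 0.0856% of probe sets called higher in the MCAO side comparison. Of 30 measured bZIP relatives, such as the other ATF, CREB, MAF and NRF genes, 0 passed in either direction, with a median side difference of 0.073 on all arrays and -0.0024 on the 20, where 15 of 30 were positive. The median over all probe sets was -0.0021 on all arrays and -0.0048 on the 20. Atf5 had the smallest p among them (0.58 ± 0.14 SE, limma adjusted p = 0.354) and Nfe2 came next (-0.43 ± 0.16, adjusted p = 0.94). Of these 30 genes, 13 were above background on no occluded and 13 on no opposite array of the 20. For such genes the lack of a call does not show that expression was unchanged. Of the 7 FOS and JUN genes, whose proteins can pair with ATF3, 4 rose, namely Fos (1.83 ± 0.28, limma adjusted p = 0.00885), Fosb (1.68 ± 0.26, 0.00885), Junb (1.24 ± 0.16, 0.00243) and Jun (0.73 ± 0.12, 0.0129). The other 3 were Fosl2 (0.83 ± 0.25, 0.919), Fosl1 (0.038 ± 0.13, 0.979) and Jund (-0.0037 ± 0.15, 0.999). The 4 genes that rose on the occluded side relative to the opposite side were also called against the sham-operated side on the 20 arrays.

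Genes of the integrated stress response, in which ATF4 induces Atf3 and its partners, gave 0 calls in 18 measured, with a median of 0.040 on all arrays and 0.017 on the 20. Of the 18, 6 were above background on no occluded and 6 on no opposite array of the 20. Atf5, given above with the bZIP relatives, belongs to this list too and had its smallest p. Ppp1r15a, which encodes a subunit that restores translation by dephosphorylating eIF2α, differed by 0.44 ± 0.16 (SE, limma adjusted p = 0.94), Atf4 itself by 0.46 ± 0.23 (0.94) and Ddit3, the pro-apoptotic C/EBP relative CHOP, by 0.13 ± 0.14 (0.94). Of 19 inflammatory genes known for regulation by or with C/EBP proteins, 2 rose, the chemokine Ccl3 (2.22 ± 0.25, adjusted p = 0.00123) and the prostaglandin synthase Ptgs2 (1.63 ± 0.24, 0.00762), and the median was 0.027 on all arrays and 0.059 on the 20. Most of the 19 were not detected, with 13 above background on no occluded and 14 on no opposite array of the 20. The list of 17 genes linked to CREB, the family that includes Crem, held known targets and the coactivator genes Crtc1, Crtc2 and Crtc3. Of these 17, the nuclear receptors Nr4a1 (1.27 ± 0.21, 0.0183) and Nr4a3 (1.16 ± 0.18, 0.00885) rose. The list median was 0.35 on all arrays and 0.19 on the 20. On the 20 arrays the phosphatase gene Dusp1 passed as well (0.93 ± 0.14, limma adjusted p = 0.0173).

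Genes of the clock and of the PAR bZIP factors, whose sites NFIL3 shares, gave 0 calls in 15, with Cry1 at 0.30 ± 0.14 (SE) and Ciart at 0.28 ± 0.13 (limma adjusted p = 0.94 for both). Against the sham-operated side on the 20 arrays, Ciart rose by 1.12 ± 0.17 (adjusted p = 0.0128), the 1 clock gene called there. No list had a member called lower in this or in the side comparison. In the side comparison on the 20 arrays the lists of FOS and JUN genes, inflammatory genes and CREB-linked genes gave 4, 2 and 3 calls, and the other 3 lists 0, where 0.126% of probe sets were called higher.

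By a rule of similarity, the 5 genes whose side differences over the 10 mice of the 20 arrays lay nearest to those of Atf3 were Egr4, Ier2, Zfp36, Junb and Egr2, with root mean square distances of 0.642, 0.689, 0.693, 0.694 and 0.701 log2 units, against a median of 1.50 over all genes. Their mean MCAO side differences were 1.10 to 1.50, positive in 7 of 7 mice. In sham mouse 3, at -1.69 for Atf3, all 5 lay higher. On all arrays Egr4 and Junb passed the threshold in the MCAO side comparison. The genes nearest to Nfil3 were Qrfpr, Spic, Ltbp2, Lmnb1 and Csrnp1, at distances of 0.296 to 0.328 against a median of 0.72, and 0 of these 5 passed.

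**Figure D4:**
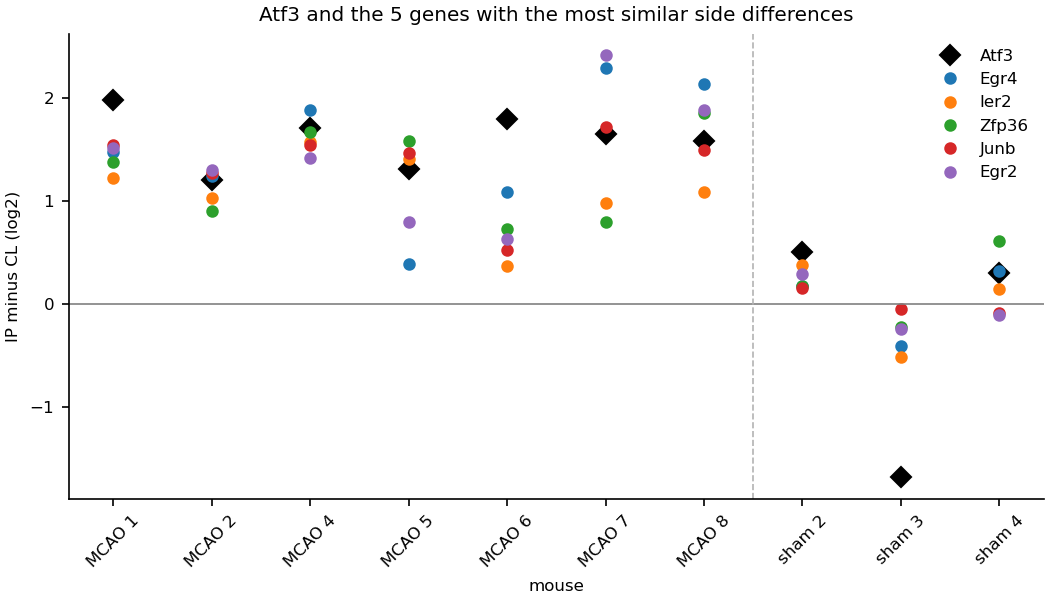
Log2 IP minus CL difference of Atf3 (black diamonds) and of the 5 genes nearest to it in each of the 10 mice whose arrays did not stand apart, with MCAO mice left of the dashed line. In the 7 MCAO mice all 6 genes are positive, and in sham mouse 3 Atf3 is at -1.69, below the other 5.

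Cell type markers were set beside these values. Over the 20 arrays, the mean signal of the 10 neuron markers per array was 9.80 to 9.98 in occluded, 9.69 to 9.95 in opposite, 9.78 to 9.92 in sham-operated and 9.81 to 9.88 in sham opposite hemispheres. For the 9 measured microglia markers the ranges were 5.76 to 6.17, 5.66 to 6.17, 5.69 to 6.03 and 5.73 to 5.81. For the 11 measured neutrophil and monocyte markers they were 2.53 to 2.91, 2.57 to 2.83, 2.61 to 2.88 and 2.59 to 2.70, and 0 of the 11, S100a8 among them, were above background on any array. No marker passed the threshold in the MCAO side comparison. The ranges of the groups overlapped for each of these 3 lists. For the 8 astrocyte markers the ranges were 8.32 to 8.61, 8.21 to 8.63, 8.21 to 8.41 and 8.17 to 8.40, and for the 8 endothelial markers 6.31 to 6.46, 6.16 to 6.57, 5.99 to 6.31 and 6.09 to 6.17. For the 7 measured oligodendrocyte markers they were 8.45 to 8.72, 8.21 to 8.75, 8.40 to 8.44 and 8.48 to 8.64, so that the sham-operated hemispheres lay below both the occluded and the sham opposite ones. Against the sham-operated side on the 20 arrays, 8 of 8 astrocyte, 7 of 8 endothelial and 5 of 7 oligodendrocyte markers had a positive difference. Their medians were 0.098, 0.14 and 0.14, against 0.0082 over all probe sets. For neuron, microglia, and neutrophil and monocyte markers it was 8 of 10, 6 of 9 and 6 of 11, with medians of 0.035, 0.092 and 0.0028. On the opposite side against sham, 6 of 8 astrocyte, 8 of 8 endothelial and 2 of 7 oligodendrocyte markers were positive. Their medians there were 0.13, 0.13 and -0.088, and 0 markers passed in either comparison. The part of any cell type in the member results was not tested.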

How the data were processed

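RNA of 24 hemispheres of 12 mice was measured on whole-transcript arrays. The authors deposited log2 signals per probe set; the submitters' processing notes name Affymetrix Expression Console without a version. Its normalization and annotation build are not given in the labels or files used, and the log2 scale was inferred from the values. Of 29129 probe sets, 6923 controls were left out and 22206 tested, with no signal filter. Names came from the platform annotation (19572 probe sets with 1 symbol, 2634 unnamed here). An array's background was the 95th percentile of its 5222 negative controls.

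limma 3.58.1 in R 4.3.3 (lmFit, eBayes) was run on the whole table. The code was also run on simulated data with independent noise. Those data held no mouse effect and no arrays that stood apart, so that run could not check how the fits handle either. Comparisons within mice used all 24 arrays with mouse as a block, since titles number the hemispheres of 1 animal. On the 20 arrays the deviations of the 2 hemispheres of 1 mouse correlated at 0.11 to 0.31 (median 0.15). Between mice they correlated at -0.20 to 0.17 (median -0.02), so the ranges overlapped. Comparisons between mice used the 12 arrays of 1 side. P-values were adjusted by Benjamini-Hochberg, threshold 0.05. Errors are SE from the fit or SD over mice. The number of arrays limits the precision.

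All members were named in each comparison; from each list up to 4 called genes of largest change, or the 2 of smallest p where none passed, and for Atf3 and Nfil3 the 5 nearest genes. Fosl1, Fosl2, Jund, Atf4, Ddit3 and Dusp1 were added after their values were seen. The members and lists were chosen with earlier results of these data known. Alternatives were other mouse blocks, trended robust and weighted fits, quantile normalization, no dim probe sets, gene means, leaving out each mouse and leaving out the 4 arrays; the settings on the 20 arrays were added after seeing the data.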

Additional observations from a re-analysis of the deposited data

Results flagged for a closer look

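Of 42 groups of 4 or 8 values examined, 8 had a lowest or highest value far from the rest, where chance gives about 1 in 20, and 7 of these 8 values came from the arrays that stood apart. Cebpb in the occluded hemisphere of MCAO mouse 3 had a log2 signal of 3.87, against 5.08 to 5.30 in the other mice. Cebpd in the opposite hemisphere of sham mouse 1 was 5.08, against 5.93 to 6.05. Cebpg was 4.46 on the occluded and 4.28 on the opposite side of MCAO mouse 3, against 5.95 to 6.56 and 5.64 to 6.40, and 4.44 on the opposite side of sham mouse 1, against 6.18 to 6.31. Maff on the occluded side of MCAO mouse 3 was 2.84, against 3.69 to 4.09, and its side difference there was -1.14, against -0.088 to 0.70. The value not from those arrays was the Atf3 side difference of sham mouse 3, -1.69, against 0.30 to 0.51 in the other sham mice.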

How the results depend on the processing

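Over 667 alternatives for the 35 values (7 members, 5 comparisons), 632 kept direction and side of the threshold, 1 lost a call, 6 gained one and 28, none past the threshold, changed sign; the causes were not tested. Without a replicate block, which drops the pairing of hemispheres, 0 members passed in the MCAO side comparison (Atf3 1.48, limma adjusted p = 0.239). Atf3 passed without the block on the 20 arrays (1.60, adjusted p = 0.00387). Against the sham-operated side, 3 members passed on the 20 arrays and with array quality weights (Atf3 2.23 and 2.25).

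Signs changed for small values. With quantile normalization the MCAO side difference was -0.066 for Cebpb and 0.040 for Cebpd, and the sham side difference 0.014 for Atf3 and -0.0026 for Nfil3. With the 4 arrays left out and with weights, the interaction was -0.017 and -0.0036 for Cebpd and 0.082 and 0.060 for Maff, and the opposite-side difference of Cebpg was -0.19 and -0.16. Leaving out 1 mouse gave MCAO side differences of -0.025 to 0.19 for Cebpb, -0.080 to 0.13 for Cebpd and -0.027 to 0.24 for Maff. It gave sham side differences of -0.32 to 0.41 for Atf3, -0.084 to 0.24 for Maff and -0.26 to 0.17 for Nfil3. It gave an interaction of -0.18 to 0.15 for Maff, and opposite-side differences of -0.097 to 0.42 for Atf3 and -0.41 to 0.26 for Cebpg.

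Probe sets past the threshold in the MCAO side comparison numbered 19, against 6 with quantile normalization, 64 with weights, 0 without the block, 29 with a random block, 30 on the 20 arrays and 10 to 23 without 1 mouse. Against the sham-operated side there was 1, against 33 on the 20 arrays, 50 with weights and 0 to 17 without 1 mouse. Signals near or below background limit Cebpa, Cebpb and Maff in every group and Atf3 and Nfil3 outside the occluded hemisphere. Single signals of other groups were also near it. In MCAO mouse 5, Nfil3 and Cebpd were 5.647 and 5.653 on the occluded side, against a background of 5.635. Cebpg was 5.662 on its opposite side, against 5.644.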
